A study of Mus musculus with 7 samples.

Results

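The genes described here are 10 components of epithelial cell junctions, measured in the prostates of mice with and without an activated Notch1. They are the claudins Cldn3, Cldn4, Cldn7 and Cldn8, the MARVEL domain proteins Ocln and Marveld3, the scaffold genes Tjp1 and Tjp3, and the adhesion molecules Cdh1 and Epcam. The genes were chosen by name, and every non-control probe whose accession maps to one of them was taken, which gave 13 of the 41174 probes on the array and 10 of its 17016 named genes. Ocln, Marveld3 and Tjp1 have 2 probes each, called here the brighter and the dimmer by their mean signal in the prostate channel, and the Cdh1 probe is printed in 10 spots that were averaged. Of the 13 probes 12 could be tested, all but that of Cldn4.

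Tight junctions seal the space between neighbouring epithelial cells. Claudins form the strands that bar or pass ions, occludin and the other MARVEL proteins lie in the same strands, and the zonula occludens proteins, such as those encoded by Tjp1 and Tjp3, tie the strands to the actin cytoskeleton. Below them, adherens junctions hold the cells together through E-cadherin, the product of Cdh1. Epcam, which marks most simple epithelia, is known to bind Cldn7. In the prostate these genes are expressed mainly by the luminal and basal cells that line the glands.

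The 7 samples were prostate RNA of C57Bl/6 mice. The 4 control samples came from mice with the ROSA(N1IC) allele, which the labels describe as wild-type for the Notch1 intracellular domain (NICD). The 3 PB-NICD samples came from ARR2PB-Cre;ROSA(N1IC) mice, in which Cre driven by the probasin-derived ARR2PB promoter turns that allele on in the prostate, and which per the labels develop prostatic intraepithelial neoplasia. Both groups thus carry the ROSA(N1IC) allele, and no age stands in the labels used here. Nothing in the labels says whether a sample is 1 animal or a pool, so the p-values measure only the spread between these samples. In RNA of a whole organ, fewer cells of a type and less RNA per cell cannot be told apart.

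Each sample was read in the red channel of its own 2-colour array against a universal mouse reference RNA in the green channel, with no swap of dyes. A value is the log2 ratio of sample over reference. Changes are differences of group means, PB-NICD less control, given with the standard error from limma, and a probe was called where the p-value adjusted over all 21280 tested probes was under 0.05. In that test 8.24% of all probes were called, 3.63% as higher and 4.61% as lower in PB-NICD. Control 1, control 2 and PB-NICD 1 lay on 1 slide (slide 1), and the other 4 arrays on another (slide 2). The number of arrays limits the precision.

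The labels were checked first. Notch1 read 0.05, 0.30, 0.84 and 0.67 in control 1 to control 4, 2.63 in PB-NICD 2 and 2.74 in PB-NICD 3. In PB-NICD 1 the Notch1 spot carried an outlier mark and was dropped; kept, it read 2.47. The 2 probes of the Notch target gene Heyl rose by 2.87 (adjusted p = 5.53e-07) and 1.90 (adjusted p = 0.00141), with every PB-NICD array above every control. Prostate signals were dim, with array medians of 69 to 107 where the background medians were 53 to 55.

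PB-NICD 1 needs a further remark, because its values depend on the background correction. On this array 28 of 45018 spots had a local background that the scanner software marked as non-uniform, with a background of up to 47870 against a median of 53. When the normexp background model was fitted on all spots, the SD of its normal part in the sample channel was 343.9 on PB-NICD 1 and 1.39 to 12.1 on the other arrays, and dim genes on PB-NICD 1 lost most of their ratio. Without those spots the SD was 1.75, and the correlation of PB-NICD 1 with its column in the authors' value table across 21280 probes went from 0.8555 to 0.9922. The fit on all spots was run first and limma called 0 of the 12 junction gene probes (2 at an unadjusted p under 0.05) and 495 probes in all. The fit without those spots, used below, was adopted after that result had been seen, and called 2 of 12 and 1753 in all. The shares of all tested probes were 2.33% and 8.24%. Values from the fit on all spots are therefore given beside the calls of Marveld3, Ocln and Cdh1.

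Marveld3 was the junction gene that rose in PB-NICD prostates, on both of its probes, by 1.31-fold and 1.79-fold. Ocln was higher by 1.97-fold and 1.83-fold on its 2 probes without passing the test on all arrays, and its brighter probe passed with slide as a block. The tested claudins, Epcam, Tjp1 and Tjp3 differed by at most 0.34 (log2) in either direction and none of them passed, although Cldn3, Cldn7 and Epcam passed with median centring in place of loess. Cdh1 did not pass either, and its slide 1 controls read below the other arrays. The 2 called probes among 12 stand beside 8.24% of all probes called.

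**Figure D1:**
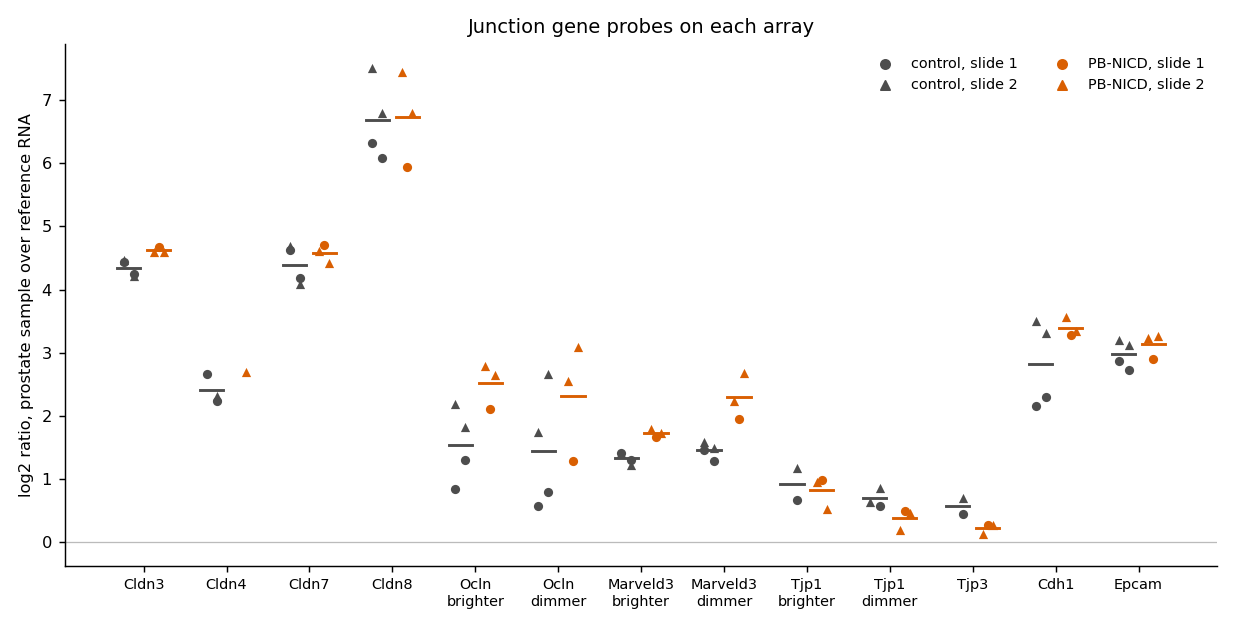
Log2 ratio of prostate sample over reference RNA (vertical axis) for each of the 13 junction gene probes (horizontal axis), 1 point per array, with bars at group means of 2 or more values; circles are slide 1 and triangles slide 2. The 3 PB-NICD points of both Marveld3 probes lie above all 4 controls, while for Cldn8, Ocln, Cdh1 and Epcam the slide 1 controls lie below the slide 2 controls.

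Marveld3 encodes a tight junction protein with the same MARVEL domain as occludin. Its brighter probe read 1.40, 1.30, 1.42 and 1.22 in control 1 to control 4 and 1.67, 1.80 and 1.72 in PB-NICD 1 to PB-NICD 3. The dimmer probe read 1.46, 1.28, 1.58 and 1.48 in the controls and 1.96, 2.23 and 2.69 in PB-NICD. On both probes all 3 PB-NICD arrays were above all 4 controls, with no overlap. The brighter probe rose by 0.39 ± 0.11 (SE, adjusted p = 0.0476) and the dimmer probe by 0.84 ± 0.17 (SE, adjusted p = 0.0117). Both stayed called with slide as a fixed block, where 12.4% of all probes were called, at 0.39 (adjusted p = 0.0382) and 0.79 (adjusted p = 0.00365).

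The 2 Marveld3 probes were not equally firm. Leaving out any 1 of the 7 arrays ended the call of the brighter probe, with adjusted p from 0.0533 to 0.179 and changes from 0.36 to 0.42. The dimmer probe kept its call without each array, and without PB-NICD 1 its change was 1.01 ± 0.16 (SE, adjusted p = 0.00623). Within slide 2 the dimmer probe rose by 0.92 (adjusted p = 0.0214), and within slide 1 the 1 PB-NICD array was above its 2 controls by 0.59, given without a test. The brighter probe read 0.44 higher within slide 2 and was not called (adjusted p = 0.155). The software's own processed signals gave 0.25 (adjusted p = 0.287) for the brighter and 0.63 (adjusted p = 0.114) for the dimmer probe, neither called. With the background model fitted on all spots the changes were 0.07 (adjusted p = 0.95) and 0.35 (adjusted p = 0.82). In the authors' value table they were 0.36 (adjusted p = 0.0133) and 0.73 (adjusted p = 0.00208), both called beside 21.3% of all probes. The 2 probes are annotated to different RefSeq transcripts of the gene and disagree in the size of the change. Both reference signals were well above background on all 7 arrays.

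Ocln encodes occludin, a membrane protein of the tight junction strands. Its brighter probe read 0.84, 1.30, 2.18 and 1.82 in control 1 to control 4 and 2.11, 2.79 and 2.65 in PB-NICD 1 to PB-NICD 3. PB-NICD 2 and PB-NICD 3 were above every control, and PB-NICD 1 was above both controls of its own slide but below control 3. The mean went from 1.54 ± 0.59 (SD, n = 4) to 2.52 ± 0.36 (SD, n = 3), a change of 0.98 ± 0.29 (SE, adjusted p = 0.0688). Slides differed on this probe, with slide 2 above slide 1 by 0.80 ± 0.15 (SE, adjusted p = 0.0221), in a comparison that called 2.8% of all probes. With slide as a fixed block the probe rose by 0.84 ± 0.15 (SE, adjusted p = 0.00365). Within slide 2 the change was 0.71 (adjusted p = 0.0463), in a test that called 5.93% of all probes, and on slide 1 the 1 PB-NICD array was above the mean of its 2 controls by 1.04, given without a test. With median centring in place of loess, which moved the median change of all probes to 0.24, this probe was at 0.07 (adjusted p = 0.766), below that shift. In the authors' value table both Ocln probes were called, at 0.84 (adjusted p = 0.00304) and 0.66 (adjusted p = 0.0413).

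The dimmer Ocln probe read 0.57, 0.78, 1.75 and 2.66 in the controls and 1.29, 2.55 and 3.10 in PB-NICD. Control 4 was above PB-NICD 1 and PB-NICD 2, so the groups overlapped. The change was 0.87 ± 0.52 (SE, adjusted p = 0.38), and 0.62 (adjusted p = 0.0806) with slide as a fixed block, slide 2 being higher by 1.53 (adjusted p = 0.00675). For Ocln the reference channel was at its limit: it was well above background on 1 of 7 arrays for the brighter probe and on 2 of 7 for the dimmer. In the sample channel alone the brighter probe was higher by 0.96 (adjusted p = 0.0709). The software's own processed signals turned the sign of the brighter probe, to -0.96 (adjusted p = 0.181), and the fit on all spots gave 0.42 (adjusted p = 0.825).

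**Figure D2:**
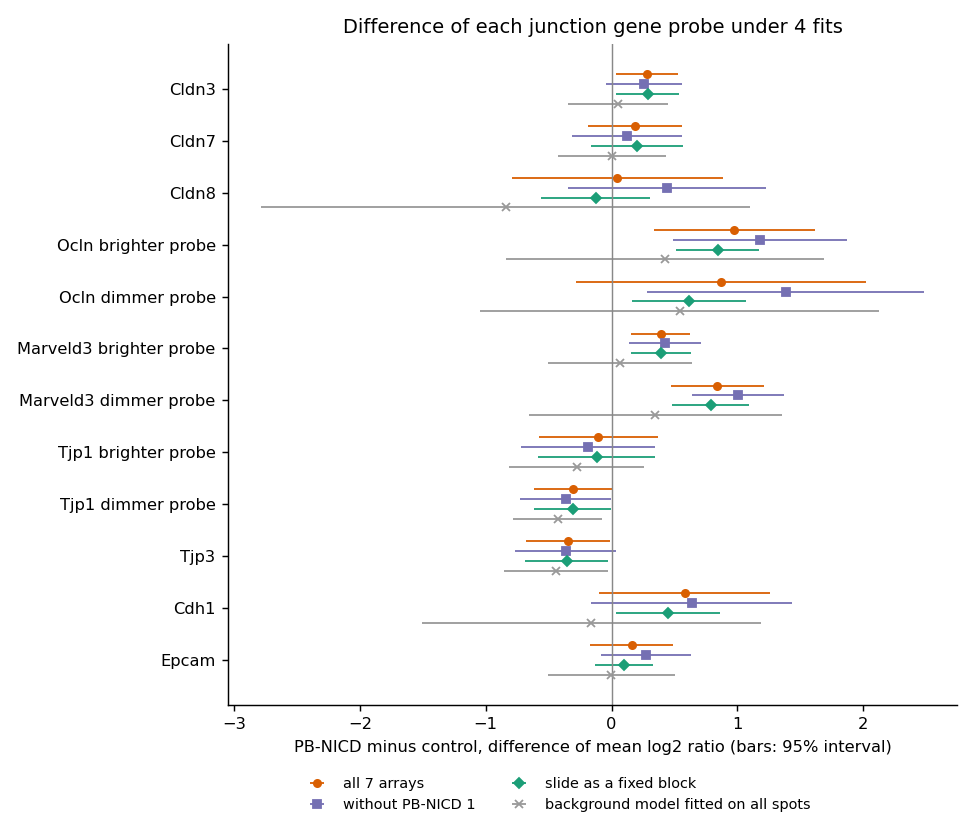
PB-NICD minus control difference of mean log2 ratio (horizontal axis) for the 12 tested probes (vertical axis), with 95% intervals from limma, under 4 fits. The intervals of both Marveld3 probes and of the brighter Ocln probe lie above 0 in the 3 fits without spots of non-uniform background, and all 3 reach below 0 when the background model is fitted on all spots.

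The 3 tested claudins did not pass. Cldn3, a sealing claudin of many glands, read 4.43, 4.24, 4.47 and 4.21 in the controls and 4.67, 4.59 and 4.60 in PB-NICD. All 3 PB-NICD arrays were above all 4 controls, but the step was small, 0.28 ± 0.11 (SE, adjusted p = 0.166), or 1.22-fold. Cldn7, which is found along the lateral membrane as well as in tight junctions, read 4.62, 4.18, 4.69 and 4.08 in the controls and 4.70, 4.62 and 4.42 in PB-NICD. Its groups overlapped, with a change of 0.19 ± 0.17 (SE, adjusted p = 0.589) and a 95% interval from -0.19 to 0.56. Median centring called both, Cldn3 at 0.82 (adjusted p = 0.0101) and Cldn7 at 0.78 (adjusted p = 0.0263), above the shift of 0.24, with 24% of all probes called.

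Cldn8, a claudin that tightens the junction against cations, had a ratio to the reference of 6.68 ± 0.63 (SD, n = 4) in controls and 6.73 ± 0.75 (SD, n = 3) in PB-NICD. Its reference signal was well above background on 1 of 7 arrays, and the scanner software, with another background correction, gave log2 ratios of 8.24 to 11.3. Cldn8 read 6.32, 6.09, 7.51 and 6.80 in the controls and 5.94, 7.44 and 6.80 in PB-NICD. The values differed by slide, higher on slide 2 by 1.04 ± 0.20 (SE, adjusted p = 0.0224). The group difference was 0.05 ± 0.38 (SE, adjusted p = 0.963) and its sign turned with the setting.

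Cldn4 could not be tested, because its spot was marked as an outlier on control 3, PB-NICD 1 and PB-NICD 2. The remaining values were 2.66, 2.24 and 2.31 in control 1, control 2 and control 4 and 2.69 in PB-NICD 3. With outlier spots kept, the missing arrays read 2.97, 2.93 and 2.96, and the change was 0.32 ± 0.18 (SE, adjusted p = 0.339). Control 3 was then the highest of the 7 arrays.

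The scaffold genes read lower in PB-NICD and did not pass. Tjp3 encodes ZO-3, and read 0.44 and 0.70 in control 2 and control 4, the 2 controls not lost to outlier marks, and 0.27, 0.13 and 0.28 in PB-NICD. The PB-NICD arrays were below both, by -0.34 ± 0.15 (SE, adjusted p = 0.215), and with outlier spots kept the other controls read 0.33 and 0.73, still above all 3. In the authors' value table Tjp3 fell by 0.34 and passed (adjusted p = 0.0348). Tjp1, which encodes ZO-1, read 0.57, 0.64 and 0.86 on its dimmer probe in control 2 to control 4 and 0.49, 0.19 and 0.46 in PB-NICD. That is a change of -0.31 ± 0.14 (SE, adjusted p = 0.23). The spot of control 1, an outlier, read 0.16 when kept, below every PB-NICD array. The brighter Tjp1 probe overlapped between groups, at 0.67 and 1.18 in the 2 controls measured and 0.98, 0.95 and 0.53 in PB-NICD. Median centring gave 0.39 for Tjp3 and 0.04 and 0.54 for the dimmer and brighter Tjp1 probes. Against that shift Tjp3 and the brighter Tjp1 probe changed sign as well, while the dimmer Tjp1 probe stayed lower.

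Cdh1 encodes E-cadherin. Its probe read 2.16 and 2.29 in control 1 and control 2 on slide 1, and 3.50 and 3.31 in control 3 and control 4 on slide 2. The PB-NICD arrays read 3.28 on slide 1 and 3.56 and 3.35 on slide 2. The slide 1 controls therefore stood below the other 5 arrays, which lay between 3.28 and 3.56. Among the 8 to 10 spots kept per array the SD was 0.13 to 0.43. No spot of the slide 1 controls was above 2.90, and no spot of the slide 2 controls was below 3.10. Over all arrays the change was 0.58 ± 0.31 (SE, adjusted p = 0.314). On slide 1 PB-NICD 1 was above the mean of its 2 controls by 1.06, given without a test, and within slide 2 the difference was 0.05 (adjusted p = 0.917, 95% interval from -0.32 to 0.41). The change on slide 2 minus that on slide 1 was -1.01 ± 0.25 (SE, unadjusted p = 0.0021 from limma, adjusted p = 0.999), so that the changes on the slides were not shown to differ, and 0.0169% of all probes were called in that comparison. Its reference signal was well above background on 4 of 7 arrays. On PB-NICD 1 the fit on all spots read 0.95 for Cdh1, below every control, and the change was then -0.16 (adjusted p = 0.95).

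Epcam encodes an epithelial adhesion molecule. It read 2.87, 2.72, 3.19 and 3.12 in the controls and 2.90, 3.24 and 3.27 in PB-NICD. Within each slide the PB-NICD arrays were above the controls, by 0.11 on slide 1 and 0.09 on slide 2 (adjusted p = 0.795 within slide 2). The change over all arrays was 0.16 ± 0.15 (SE, adjusted p = 0.608). Slide 2 read above slide 1 by 0.36 ± 0.10 (SE, adjusted p = 0.0972), with a reference signal well above background on all 7 arrays. With median centring Epcam was called, at 0.79 (adjusted p = 0.0394).

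**Figure D3:**
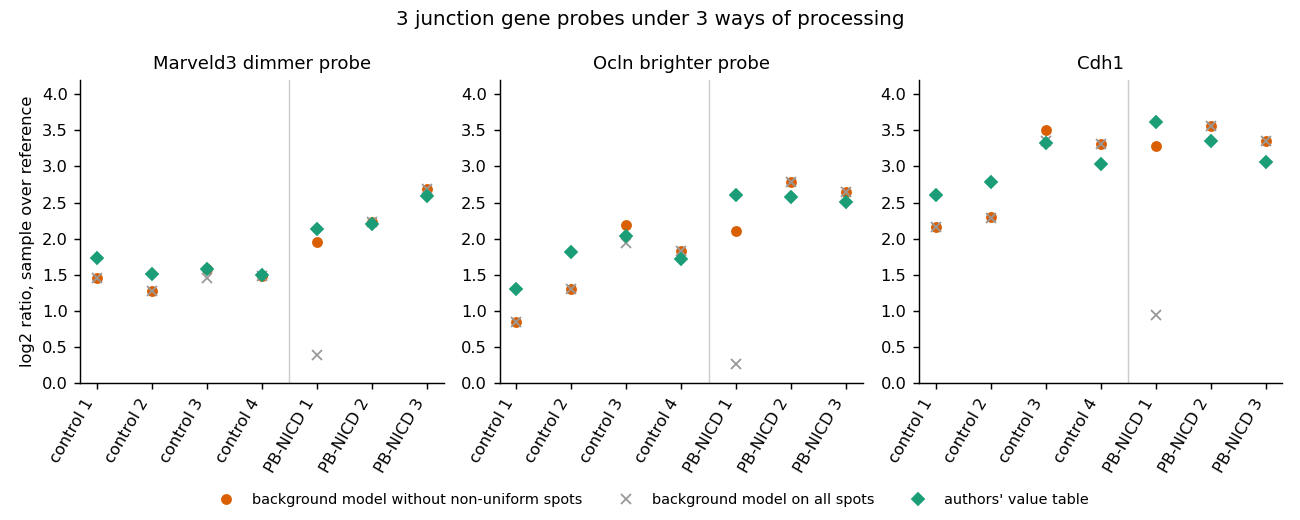
Log2 ratio of sample over reference (vertical axis) on each of the 7 arrays for the dimmer Marveld3 probe, the brighter Ocln probe and Cdh1, under the background model without spots of non-uniform background, the model fitted on all spots, and in the authors' value table. On the other 6 arrays the 2 background models lie close together, and on PB-NICD 1 the model on all spots reads lower, at 0.95 for Cdh1 against 3.28 without those spots and 3.61 in the authors' table.

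All 3 PB-NICD arrays lay above all controls for 3 of the 10 junction gene probes with 3 or more control values (Cldn3 and both Marveld3 probes), against 9.83% of all such probes. All 3 lay below for 1, the dimmer Tjp1 probe, against 13.5% of all. Across the 9 probes with values on all 7 arrays, the brighter Ocln probe and Cdh1 varied together (r = 0.91), as did the dimmer Ocln probe and Epcam (r = 0.89) and Cldn3 and the brighter Marveld3 probe (r = 0.92). The 7 arrays share the slides and the groups behind these values. Among 10575 to 10576 probes of other named genes, those most like Cldn7 over the 7 arrays were Antkmt, Adgrl1, Idh3b and Tsn (Pearson r from 0.9618 to 0.9955). Those most like the brighter Marveld3 probe were Vsig1, Paqr4, Paics and Pced1b (r from 0.98 to 0.99). Vsig1, a membrane protein with immunoglobulin domains, read -0.40 to 0.12 in the controls and 1.02 to 1.32 in PB-NICD. Those most like Epcam were Ago1, Angel2, Azi2 and Mccc2 (r from 0.98 to 0.99). Neither scaffold gene had a probe with all 7 values.

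The DNA before the transcription start is shown for Cldn3, Cldn4 and Epcam, to place an E-box known to be bound by Snail and Zeb family repressors of epithelial genes. These genes have 1 listed start each. Tjp1 also has 1 listed start, and its window, without the motif, is not shown. The sequences are the 250 bases before the start, 5′ to 3′ on the gene's strand, from RefSeq on GRCm38.p6, and capitals mark CACCTG or its reverse complement CAGGTG.
Cldn3, chr5:134985964-134986213, plus strand: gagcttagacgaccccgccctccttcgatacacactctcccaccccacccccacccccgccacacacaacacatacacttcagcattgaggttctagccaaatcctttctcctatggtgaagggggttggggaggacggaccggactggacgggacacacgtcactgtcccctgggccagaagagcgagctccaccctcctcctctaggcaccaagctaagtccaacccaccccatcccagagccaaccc
Cldn4, chr5:134946935-134947184, minus strand: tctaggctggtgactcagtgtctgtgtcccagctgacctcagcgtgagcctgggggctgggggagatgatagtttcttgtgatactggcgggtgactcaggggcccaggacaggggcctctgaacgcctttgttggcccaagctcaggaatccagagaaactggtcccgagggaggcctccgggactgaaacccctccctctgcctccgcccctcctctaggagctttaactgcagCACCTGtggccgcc
Epcam, chr17:87635729-87635978, plus strand: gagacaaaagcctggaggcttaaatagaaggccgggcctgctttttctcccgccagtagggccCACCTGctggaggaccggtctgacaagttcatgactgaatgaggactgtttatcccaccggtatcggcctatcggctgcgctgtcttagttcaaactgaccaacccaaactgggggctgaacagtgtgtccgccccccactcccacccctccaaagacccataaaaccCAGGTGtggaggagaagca
Cldn3 and Cldn4 are neighbours on chromosome 5 and face opposite strands. Cldn4 holds the motif 14 bases before the start, Epcam holds it at 187 and 19 bases before the start, and the Cldn3 window holds none. Of the 10 genes 7 had windows in the table, 10 windows in all, and 6 of these windows, of 5 genes, held the motif: those of Cldn4 and Epcam, 1 of the 2 windows of Cldn7 (97 and 57 bases before the start), 1 of the 2 of Ocln (213 and 68), and both of Tjp3 (17 and 108). Tjp1 held none. Of all 32851 windows 17.2% held it. The motif GTGGGAA of the Notch effector RBPJ, searched on both strands, was in 5.42% of all windows and in none of these 10, which says only that these letters are not in these windows. Cdh1, Cldn8 and Marveld3 are named only.

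Among 82 other genes of cell junctions, 74 had probes and 54 were tested with 82 probes. Of these probes 11 rose, for 7 genes, and 1 fell, which is 14.6% called beside 8.24% of all probes, and their median change was 0.17 against -0.02 for all. Some of the called probes share a gene. With 1 probe per gene 5 of 54 were called, near the share over all, 1463 of 16938. The lists were chosen with earlier results of these data known, and no test of a list was made. Without PB-NICD 1, 14 rose and 0 fell, which is 17.1% called beside 5.81% of all probes. In that fit 32 of the 82 had an unadjusted limma p under 0.05. The share of all probes at that limit is given only for all 7 arrays, 21.9%, where it was met by 30 of the 82. Without PB-NICD 2, 6 of the 82 were called, beside 968 of 21280 of all probes. With slide as a fixed block 18 rose, for 12 genes, and 2 fell, beside 12.4% of all probes. With the background model fitted on all spots limma called 0 of the 82 beside 2.33% of all probes. In that fit 15 of the 82 had an unadjusted p under 0.05.

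The tight junction and polarity genes gave most of the rises, 7 of 35 probes and 0 falls, with 13 of 35 at an unadjusted limma p under 0.05 beside 21.9% of all probes. Cgnl1 encodes paracingulin, a cytoplasmic protein that links junctions to actin. All 3 of its called probes were higher in every PB-NICD array than in any control, and the 1 with the largest change read 0.74, 0.68, 1.47 and 1.04 in the controls and 2.62, 2.60 and 2.58 in PB-NICD. These probes rose by 1.34 ± 0.14, 1.62 ± 0.18 and 1.37 ± 0.15 (SE, adjusted p = 0.000348 to 0.000455), and its remaining 2 tested probes read 0.39 and 0.42 higher (adjusted p = 0.307 and 0.283). Marveld2, the tricellulin of corners between 3 cells, rose on 1 probe by 1.40 ± 0.33 (SE, adjusted p = 0.0332) and read 0.77 higher on the other (adjusted p = 0.304). The called probe has no value on PB-NICD 1, so its PB-NICD arrays are both from slide 2. Blocking on slide gave it a change of 0.90 (adjusted p = 0.0148), and with outlier spots kept it was 1.05 and not called (adjusted p = 0.0987). Lsr, which recruits tricellulin to those corners, rose by 0.77 ± 0.17 (SE, adjusted p = 0.0174), from 3.48 to 4.15 in the controls to 4.53 to 4.61 in PB-NICD. Cxadr, an adhesion protein of the tight junction, rose on 1 of 3 probes by 0.76 (adjusted p = 0.0108), with the others at 0.11 and 0.36 (adjusted p = 0.714 and 0.308). Patj, a polarity scaffold, rose on 1 of 3 probes by 0.75 (adjusted p = 0.037), with the others at 0.71 and 0.30 (adjusted p = 0.101 and 0.232). Ildr1, a relative of Lsr, was higher by 1.17 without passing (adjusted p = 0.0923), and passed at 0.99 when slide was a block (adjusted p = 0.0022).

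Of the other claudins 1 of 11 probes was called, that of Cldn1, which fell by 1.02 ± 0.23 (SE, adjusted p = 0.0288). Cldn1 read 0.77, 1.32 and 1.85 in control 1, control 3 and control 4 and 0.22, 0.38 and 0.28 in PB-NICD. Without PB-NICD 1 the adjusted p was 0.0786 at -0.98. Cldn10 read 1.14 higher (adjusted p = 0.114) and Cldn23 changed by -0.44 (adjusted p = 0.626).

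Afdn, the afadin that ties nectins to actin, was the adherens junction gene that rose, on 3 probes by 0.73 to 0.87 (adjusted p = 0.0016 to 0.024), with its remaining probe at 0.76 (adjusted p = 0.0793). Its most firmly called probe read -0.34 to -0.01 in the controls and 0.64 to 0.77 in PB-NICD. Ctnnb1, β-catenin, was higher by 0.37 (adjusted p = 0.155) on a probe without a value on PB-NICD 1, and by 0.12 (adjusted p = 0.633) on its other probe. Of the gap junction connexins Gjb1 rose by 1.08 (adjusted p = 0.0455), while Gjb2 read -0.87 (adjusted p = 0.0723, and 0.00647 once slide was a block) and Gjc1 -0.18 (adjusted p = 0.548). No desmosome probe was called by limma, 0 of 11, although 6 of 11 had an unadjusted p under 0.05 and their median change was 0.47. Pkp4 and Dsg2 differed by up to 0.91 (adjusted p = 0.15) and 0.76 (adjusted p = 0.0599). That Pkp4 probe has no value on PB-NICD 1, and blocking on slide gave it 0.36 (adjusted p = 0.156). With slide as a fixed block 4 desmosome probes of 3 genes passed. These were 2 of the 3 Dsg2 probes (adjusted p = 0.0199 and 0.00471, the third at 0.0901), 1 of the 2 Pkp4 probes (adjusted p = 0.0123) and 1 Evpl probe (adjusted p = 0.027). The other Evpl probe read -0.23 in that fit (adjusted p = 0.401).

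**Figure D4:**
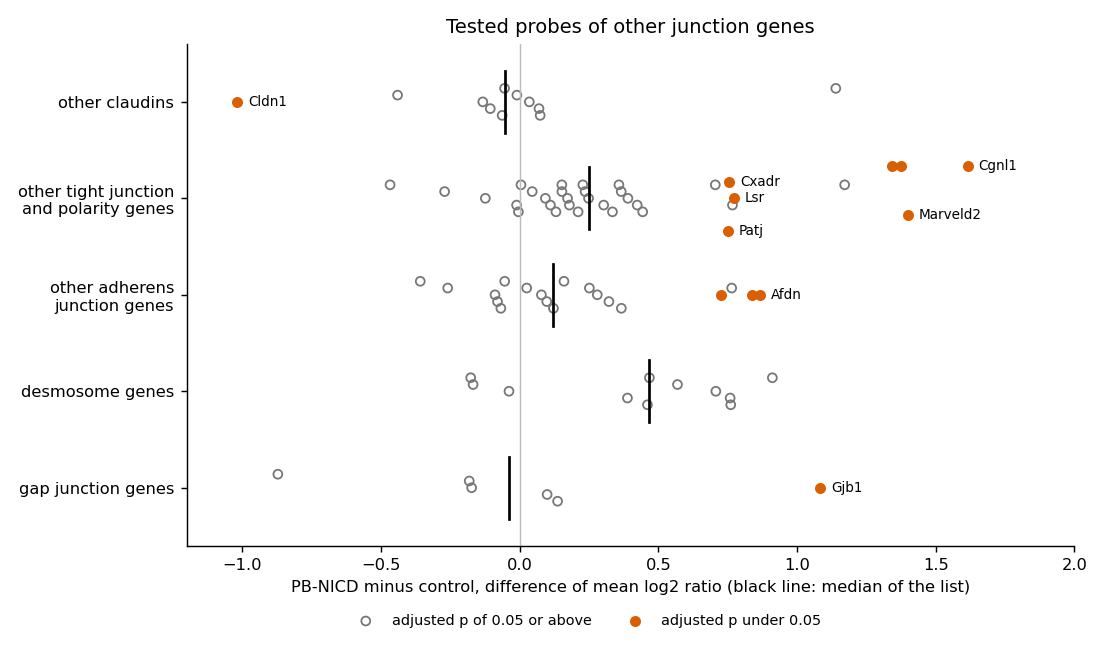
PB-NICD minus control difference of mean log2 ratio (horizontal axis) for each of the 82 tested probes of other junction genes, by list; filled points have an adjusted p under 0.05 and black lines are list medians. The 11 called rises lie between 0.73 and 1.62, and Cldn1 is the 1 called fall, at -1.02.

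Factors that act on epithelial gene programmes did not move one way. Klf5, a Krüppel-like factor of basal and proliferating epithelium, rose by 0.90 ± 0.14 (SE, adjusted p = 0.00366), while the ETS factors Ehf (-0.97, adjusted p = 0.00448) and Elf5 (-1.06, adjusted p = 0.0259) fell, each on 1 probe. The other Ehf probes read -0.72 (adjusted p = 0.124) and -0.45 (adjusted p = 0.15), and both passed when slide was a block (adjusted p = 0.000679 and 0.0444). Grhl2, a grainyhead factor known to drive claudin and cadherin genes, was higher by 0.92 without passing (adjusted p = 0.0526), on 2 arrays a group, all of slide 2. A slide block cannot adjust this probe, and its change stayed at 0.92 in that fit. Its adjusted p there was 0.0208, with 12.4% of all probes called. The other Grhl2 probes read 0.28 and 0.21 higher (adjusted p = 0.377 and 0.807). Of the repressors whose E-box is shown above, Snai1 read -0.51 (adjusted p = 0.0854), Snai2 -0.555 (adjusted p = 0.0718) and a Zeb1 probe -0.33 (adjusted p = 0.147). Snai2 passed when slide was a block (adjusted p = 0.0364). Their part in the junction results was not tested. Of the membrane proteases that act at epithelial surfaces Hpn, hepsin, rose on 1 probe by 1.35 ± 0.18 (SE, adjusted p = 0.0012), its other probe reading 0.26 higher (adjusted p = 0.424), and Tmprss2 fell on 1 probe by 1.31 ± 0.22 (SE, adjusted p = 0.00881). The other Tmprss2 probe read -0.61 (adjusted p = 0.413), and Spint1, an inhibitor of such proteases, up to 0.75 higher (adjusted p = 0.101). Both passed when slide was a block (adjusted p = 0.0105 and 0.0242).

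Markers of some cell types moved with the groups too, and their part in the junction results was not tested. The mean log2 ratio of the 3 of 4 basal markers measured on all arrays was 0.82 to 1.06 in controls and -0.06 to 0.16 in PB-NICD, and Krt5 (-1.74, adjusted p = 0.000161) and Krt15 (-1.17, adjusted p = 0.00436) fell. That of 3 of 7 luminal markers was 4.03 to 4.59 and 3.93 to 4.27. Krt19, a keratin of simple epithelia, rose by 1.00 (adjusted p = 0.0328) and was the 1 called luminal marker of 7. Pbsn, probasin, a secreted protein of luminal cells, read -0.87 (adjusted p = 0.154). Krt8 read higher by 0.27 and 0.39 on its 2 probes (adjusted p = 0.191 and 0.111), and Krt18 -0.41 (adjusted p = 0.12). That of 2 of 6 smooth muscle markers was 2.48 to 2.98 and 2.14 to 2.59, and Tagln fell on 1 of 2 probes, by 0.65 (adjusted p = 0.0302). The endothelial marker Emcn fell by 0.81 (adjusted p = 0.0383). It was the 1 called of 2 tested endothelial probes, whose median change was -0.43. No tested probe was called for fibroblasts (0 of 8), leukocytes (0 of 6) or adipocytes (0 of 1). For the urothelium, 1 of 5 markers, Upk1b, was measured on all arrays, at 2.92 to 4.51 and 2.40 to 3.68. Upk3a, which lacks values on some arrays, rose by 5.11 (adjusted p = 0.000561). The 3 tested urothelial probes had a median change of 0.0048. Within slide 2 only Upk1b could be tested, and it was called lower, at -0.88, in a test that called 5.93% of all probes. The seminal vesicle marker Svs4 differed by slide. On slide 1 it read 2.36 in control 1, 9.39 in control 2 and 5.75 in PB-NICD 1. On slide 2 it read -0.02 and -0.28 in control 3 and control 4, and 0.71 and 0.66 in PB-NICD 2 and PB-NICD 3. Its part in the junction gene values that differed by slide was not tested. In control 2 the Marveld3 probes read 1.30 and 1.28, the second being the lowest control value of the dimmer probe.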

How the data were processed

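Per the labels, prostate RNA was read in red and a universal reference RNA in green. The deposited intensity columns hold, per the file headers, median spot and background signals of Agilent Feature Extraction 10.7.3.1, not normalized, and processed signals that the software background-subtracted and dye-normalized. LogRatio is log10 of red over green, per the file headers. The authors' value table is on a log2 scale centred near 0, for which no source used here names the normalization. Each column correlated with its own array at r = 0.9905 to 0.9965. Probes were named by accession through RefSeq (GRCm38.p6), which named 24375 of 41174.

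In limma 3.58.1 (R 4.3.3), normexp (offset 50) and loess within arrays were applied, control spots had weight 0, outlier spots were missing and spots of a probe were averaged. Normexp parameters were fitted without spots of non-uniform local background (2 to 28 per array), which were set missing. This departs from the planned fit on all spots: 2 settings were run, the fit on all spots first, and the change followed from the fitted parameters and the authors' values on PB-NICD 1, with the first calls already seen. A probe was tested when well above background in the sample channel on at least 3 arrays with 2 values a group. Groups were compared by lmFit and eBayes, two-sided, Benjamini-Hochberg over 21280 probes. On data simulated for this comparison with 21280 probes, 97% of changes of 2 and 70% of changes of 1 (log2) were recovered, with 14 false calls. The simulation changed 100 probes of each size and held no slide effect. It held no change below 1, so it does not give the recovery of changes as small as those of the junction gene probes.

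Members and gene lists were chosen with earlier results of these data known. Named were all members, each gene of the junction, factor and protease lists with a called probe and the 2 largest uncalled changes per list, and markers as lists, those with a called probe by value, plus the 4 genes most correlated with the brightest complete probe of a role. Snai1, Snai2 and Zeb1 were added because their E-box is shown. Between the 2 groups, samples of replicate numbers 1, 2 and 3 had correlations of deviations of 0.34, -0.24 and 0.10. Samples of replicates 1 and 3 shared a slide and those of replicate 2 did not. These correlations therefore cannot show whether the samples were paired. Alternatives varied background correction, offset, centring, scaling, channel, outliers, filters, probe choice, the value table, slide, replicate block and the arrays used. 1 gene of the lists is not reported here and was left out of the list counts.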

Additional observations from a re-analysis of the deposited data

How the results depend on the processing

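The 2 called junction gene probes, 1753 called probes and 12 called probes of other junction genes became 0, 495 and 0 with normexp fitted on all spots, the planned setting run first, and 5, 5100 and 34 with median centring in place of loess, 5, 4525 and 28 in the authors' value table. The junction gene count was 0 with the Agilent processed signals and 1 with an offset of 16, with no filter on signal, with 1 probe per gene and with the sample channel alone, which called 1048 probes. With 1 probe per gene 5 of 54 probes of other junction genes were called, beside 1463 of 16938 of all probes. Slide as a fixed block called 2641 and 20, within slide 1, with 1 PB-NICD array taken to vary like the controls, 991 and within slide 2 1165 probes were called. Leaving out 1 array gave 1 to 2, 968 to 1840 and 6 to 18, lowest without PB-NICD 2. The replicate block gave 3 junction gene probes, both of Ocln and the dimmer Marveld3 probe, 1398 probes and 17 of other junction genes. Of all called probes 44% were higher, against 93% with median centring (4741 higher and 359 lower), 16% with normexp on all spots and 55% in the sample channel alone.

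Signs turned as follows. Cldn8 was -1.17 with the Agilent processed signals, -0.84 with normexp on all spots, -0.29 with an offset of 16, -0.61 with scale normalization, -0.24 in the authors' table, -0.13 and -0.013 with slide as a fixed and a random block, -0.26 within slide 1, -0.036 within slide 2, and -0.31 to 0.44 with 1 array left out. The brighter Ocln probe was -0.96 and Cdh1 -0.35 with the processed signals. Cdh1 was -0.16 and Epcam -0.0018 with normexp on all spots. Scale normalization gave -0.16 for Cldn3, -0.25 for Cldn7 and -0.14 for Epcam. Median centring gave 0.54 and 0.041 for the brighter and dimmer Tjp1 probes and 0.39 for Tjp3. The brighter Tjp1 probe was 0.28 with the replicate block and -0.36 to 0.15 with 1 array left out. The causes were not tested, apart from the non-uniform spots on PB-NICD 1 described above. Dim reference signals limit Cldn8, Ocln and Cdh1. None of the 9 junction gene probes with 4 control values had a control array that Dixon's rule sets apart. That rule looks for 1 array apart from the rest, so it cannot show the split of the controls by slide seen for Cldn8, Ocln, Cdh1 and Epcam.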
